A study of Bos taurus with 42 samples.

Results

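The cluster is an annotated locus of PIWI-interacting RNAs (piRNAs) on bovine chromosome 17, which gave 17.8% of the piRNA reads of oocytes (chr17:62734087-62862016, 127930 bases, in the coordinates of the deposited row names). Its members were the rows of the deposited small RNA table whose first listed hit is that cluster, 461 of 12345 rows. Among the 616 cluster names that occur as a first hit it ranked 3 by number of rows, and 9474 rows in all name a piRNA first. A further 318 rows name the cluster only in a later hit and were not counted as members.

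The study sequenced RNA shorter than 200 nt on an Ion Proton from cattle. Metaphase II oocytes matured in vitro (n = 3) were the starting point. Embryos were made by in vitro fertilisation with semen of 1 Holstein bull (IVF) or by nuclear transfer from somatic cells (NT), in which serum-starved ear fibroblasts of a Brahma Spanish bull cross were fused into enucleated oocytes. Both kinds were cultured on cumulus cells and pooled by 20 embryos at the 2-cell stage on day 2 (IVF n = 4, NT n = 4), the 8-cell stage on day 3 (IVF n = 3, NT n = 4), the morula on day 6 (IVF n = 4, NT n = 3) and the blastocyst on day 8 (IVF n = 3, NT n = 4). Cells grown out of blastocysts (BDC, IVF n = 4, NT n = 3) and the fibroblast cultures (n = 3) completed the 12 groups of 42 libraries. Ages of the animals are not given in the labels, the fibroblasts came from 1 animal, and the labels give 4 pools per stage in one place and 3 in another, and nothing says that pools of a group came from separate animals, so p-values measure the spread between these pools.

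Short RNAs of this class are bound by PIWI proteins and guide them to complementary RNA, above all that of transposable elements, in germ cells. Long single-stranded transcripts from genomic clusters are cut into piRNAs. Many mature molecules, though not all, carry a methyl group at the 3′ end that shields them from decay and from added bases. In many mammals, cattle included, oocytes hold abundant piRNAs and the early embryo inherits them.

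A row of the table is 1 annotation string and pools all reads that received it, so a row is not 1 molecule. No read sequence comes with the rows, so none is shown. A hit may carry a position, an arrow and a pair of bases. In 783 of 783 pairs of hits in the table that give different bases at one position, the base after the arrow was the one they shared, so that base was taken as the read's and the base before it as the cluster's. In tokens such as C20A the cluster has C and the read A at the 20th listed position. The listed positions ran from 1 to 30. The end from which they are counted, and the reads' lengths, are not stated in the labels or the table.

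The cluster's hit was exact in 152 rows and carried an arrow in 309. Of the exact rows, 74 had no arrow anywhere and 78 had one in a later hit. In 164 rows only this cluster and the larger name that overlaps it (chr17:62734026-62887012) were listed. Of these, 1 was exact and 163 carried the same change in both hits. Another cluster was named as well in 294 rows, 149 exact and 145 with an arrow, so their reads cannot be placed on chromosome 17 alone. There were 175 such other clusters, and the one named most often (chr24:17793334-17800783) occurred in 25 members. Members are called E1, E2 and so on (exact) or M1, M2 and so on (arrow) by falling mean level in the oocytes. The named ones were therefore chosen by oocyte values.

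E1, the exact row that lists no other cluster, held 92.1% of the 2370089 cluster reads, and the 10 rows with most reads held 95.9%. The median row had 49 reads over all libraries, and 307 rows had under 100. All 3 oocyte libraries listed 143 members, and 153 members were listed in none of them. Members listed per library ran from 204 to 237 in oocytes, from 213 to 259 in IVF and from 216 to 461 in NT 2-cell embryos, and from 80 to 125 in IVF and from 56 to 158 in NT blastocysts. Read values here are those recovered from the deposited log2 values, on a scale in which the smallest value in a library is 2 reads. A member at 0 therefore had fewer than 2 reads.

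Some libraries stood apart before any comparison. Listed reads over all annotations ranged from 25119 to 3081186 (median 608571.5), and IVF morula replicate 3 was the lowest. IVF morula replicate 1 had 784359 listed reads, of which 0.143% (1125 reads) were piRNA, and no cluster read. In that library 7 fibroblast microRNAs made up 6.95% of listed reads, against 0.243% to 0.465% in the other 3 IVF morula libraries, and 3 detected epithelial microRNAs 0.916%, against at most 0.083%. In oocytes the fibroblast list made up 0.104% to 0.382%, and in fibroblasts 0.464% to 9.08%. It was higher in BDC, with 7.97% to 19.4% for IVF and 15.9% to 19.8% for NT. The epithelial list made up at most 0.000521% in fibroblasts, 0.00127% to 1.54% in IVF BDC and 0.655% to 1.27% in NT BDC. The part of these markers in the results was not tested. NT 2-cell replicate 4 is the only library in which all 12345 rows are listed, so a row absent from it is not in the table. This bears on every comparison of 2-cell embryos with each other or with another group, and on counts and rates of arrow rows at that stage. Its part in the results was not tested.

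The cluster kept nearly the same share of piRNA reads from oocyte to blastocyst while piRNAs as a whole became a smaller share of listed reads. The share was 16.9%, 18.1% and 18.5% in the 3 oocyte libraries, a mean of 17.8% ± 0.84 (SD, n = 3). Mean shares were 18.3% ± 0.57 (n = 4) and 18.4% ± 0.12 (n = 4) in IVF and NT 2-cell embryos, 17.7% ± 0.089 (n = 3) and 18.1% ± 0.197 (n = 4) in 8-cell embryos, and 17.5% ± 0.22 (n = 3) in NT morulae. Each of these groups overlapped the oocytes. IVF blastocysts had 16.2%, 16.8% and 16.7%, all below the lowest oocyte library, and NT blastocysts had 17.8%, 17%, 17% and 16.6%, which overlapped the oocytes. Of listed reads the cluster made up 16.0% ± 0.72 in oocytes (n = 3), 4.54% ± 0.95 in blastocysts from IVF (n = 3) and 3.55% ± 1.28 in those from NT (n = 4), while all piRNAs made up 89.9%, 27.5% and 20.8% on average. In these pooled samples, fewer cells with piRNAs, less piRNA per cell and more RNA of other kinds cannot be told apart. A steady share was not particular to this cluster. The chromosome 6 cluster with most rows had 32.8% of piRNA reads in oocytes, and 33.8% and 34.0% in IVF and NT blastocysts. The chromosome 23 cluster with most rows had 17.5%, 16.7% and 16.5%.

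**Figure D1:**
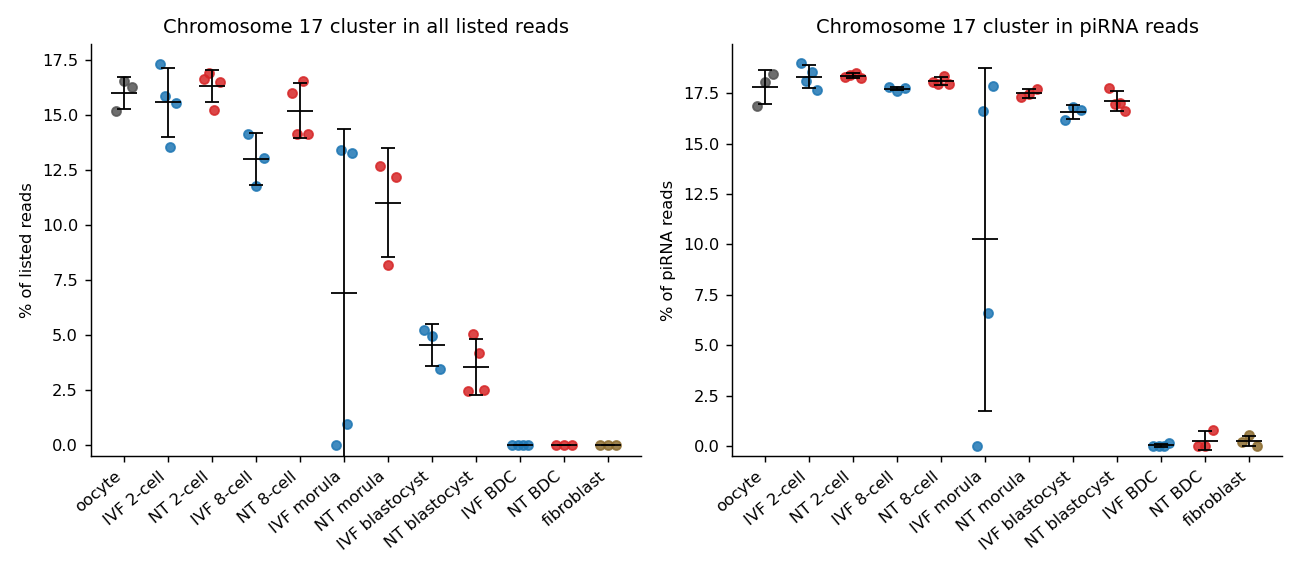
Reads of the chromosome 17 cluster by group, as a percentage of listed reads (left) and of piRNA reads (right). Points are libraries and bars are the mean ± SD. The share of piRNA reads lay between 16.2% and 19% in every oocyte and embryo library except IVF morula replicates 1 and 3, while the share of listed reads was lowest among embryos in NT blastocysts (mean 3.55%), those 2 libraries aside.

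In 6 tests of the share of piRNA reads (two-sided exact permutation tests over libraries, Benjamini-Hochberg adjusted over the 6), none passed an adjusted 0.05. IVF blastocysts were 1.24 percentage points below oocytes (difference -1.24, exact permutation p = 0.1, the smallest that 3 against 3 allow, adjusted p = 0.3). NT blastocysts were 0.70 points below (difference -0.70, exact permutation p = 0.229). NT exceeded IVF by 0.366 points at the 8-cell stage, where the groups did not overlap (exact permutation p = 0.0286, adjusted p = 0.171). At the 2-cell and blastocyst stages the NT minus IVF differences were 0.044 (exact permutation p = 0.857) and 0.542 points (p = 0.171). For the morula it was 7.24 points (exact permutation p = 0.257), with IVF morula replicates at 0%, 16.6%, 6.57% and 17.8%. Replicate 1 had no cluster read, which allows a share of up to 0.340% by the Wilson 95% interval, and replicate 3 had 243 of 3696 piRNA reads (5.82% to 7.42%). These intervals cover counting error only.

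Outside oocytes and embryos the cluster was almost missing. Fibroblasts had 6 of 3403 piRNA reads (0.176%, Wilson 95% interval 0.0808% to 0.384%), 51 of 9566 (0.533%, 0.406% to 0.700%) and 2 of 8644 (0.0231%, 0.00635% to 0.0843%). Cells from IVF blastocysts had none in replicates 1 to 3 and 3 of 2330 in replicate 4 (0.129%, 0.0438% to 0.378%). Cells from NT blastocysts had none in 2 libraries and 17 of 2127 in the third (0.799%, 0.500% to 1.28%). In the fibroblasts 3 members were listed at all, and in the blastocyst-derived cells 1.

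The cluster's reads were mostly those of E1 (92.1% over all libraries), so the cluster and E1 are not separate results. The deposited values of E1 give its level and not a share of piRNA reads. On a log2 scale whose lowest value of 1.37 stands for fewer than 2 reads, they were 18.15, 18.55 and 18.03 in oocytes. They were 18.72, 17.94, 16.29 and 18.01 in IVF and 18.41, 18.62, 17.07 and 18.18 in NT 2-cell embryos. At the 8-cell stage they were 17.14, 17.16 and 16.47 in IVF and 17.96, 16.89, 18.44 and 16.67 in NT embryos, and NT morulae had 16.24, 15.46 and 16.16. The 2-cell ranges overlapped the oocytes, and every NT morula lay below every oocyte library. IVF blastocysts had 13.71, 13.80 and 13.46, NT blastocysts 12.57, 13.55, 13.24 and 12.02, and fibroblasts 2.69, 4.18 and 1.71. None of these 3 groups overlapped the oocytes, and fibroblasts lay below all blastocysts. In the blastocyst-derived cells E1 was at the lowest value in 5 of 7 libraries and reached 2.00 and 2.66 in the others. IVF morula replicates 1 to 4 had 1.37, 16.74, 11.21 and 16.55.

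By limma over all rows tested, with Benjamini-Hochberg adjustment, E1 fell by 4.58 log2 units in IVF blastocysts against oocytes (change -4.58 ± 1.86 SE, adjusted p = 0.0460) and by 5.40 in NT blastocysts (-5.40 ± 1.74, adjusted p = 0.00882). The 12 groups share 1 estimate of spread. Without IVF morula replicates 1 and 3, a choice made after seeing the data, the SEs were 0.95 and 0.88 and the adjusted p-values 6.02e-05 and 6.40e-07. In fibroblasts it was lower by 15.38 (-15.38 ± 1.86, adjusted p = 2.59e-10). These comparisons share the oocyte libraries. NT did not pass against IVF at any embryonic stage. The E1 differences were 0.33 ± 1.61 at the 2-cell stage (adjusted p = 0.951) and 4.48 ± 1.74 for the morula (adjusted p = 0.338), the latter turning to -0.69 ± 1.06 without IVF morula replicates 1 and 3.

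Across all members, 455 of 461 passed the filter on low values. In IVF blastocysts 173 of these were called lower than oocytes and none higher (background: 35.4% of the 12039 rows tested were called, 33.9% lower and 1.49% higher), and in NT blastocysts 197 were lower and none higher (background 40.4%, 38.5% lower and 1.91% higher). In fibroblasts 197 were lower (background 41.8%, 40.4% lower). In each of these, 2 of the called rows (E72 and M107) passed the filter only through the oocytes. The cluster's counts were near or a little above the share of all rows. The median change over the tested members was -0.96, -0.99 and -1.08 log2 units, against -0.86, -0.87 and -0.97 over all rows. Of the chromosome 6 cluster (chr6:110178897-110333441, 426 rows), 210 of 420 tested rows (50.0%) were lower in IVF blastocysts and 232 (55.2%) in NT blastocysts.

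Those directions rest on the deposited scaling, which lets piRNAs fall as a class. With the values centred instead on the other piRNAs, 146 members were higher and 85 lower in IVF blastocysts, 151 and 95 in those from NT, and 160 and 96 in fibroblasts. Centred on the median of the rows, the counts were 3 and 39, 45 and 66, and 2 and 80. Centring on the other piRNAs moved the median of all rows from -0.86 to 0.71 in IVF and from -0.87 to 0.79 in NT blastocysts. Either centring moves rows at the lowest value in both groups along with the rest, and 153 members were listed in no oocyte library. For such rows a call after centring gives no direction, and the counts of higher members do not show a rise of the cluster. With the deposited scaling, 40 of 74 exact rows without any arrow were called lower in IVF and 44 in NT blastocysts, against 16 and 19 of 78 exact rows with a later arrow and 117 and 134 of 303 arrow rows. The difference between these kinds was not tested.

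The other exact rows did not keep one ratio to E1. Their levels are given per 1000 E1 reads of the same library, as a description of rows that also name other clusters. IVF morula replicates 1 and 3, with under 1000 E1 reads each, have no such value. E2, which also names a cluster on chromosome 29 (chr29:7529040-7538022), stood at 8.37 ± 0.47 in oocytes (n = 3), 12.2 and 12.3 in IVF and NT 2-cell embryos, 15.7 and 13.2 at the 8-cell stage, and 12.5 ± 7.0 (n = 3) and 15.4 in blastocysts. E3, shared with a chromosome 24 cluster, stood at 4.50 ± 0.66 in oocytes, 9.14 and 8.41 in 2-cell embryos, and 7.13 and 6.26 in blastocysts. Both were higher relative to E1 after the oocyte stage by group mean. E10 was higher at later stages by the same measure, from 0.839 ± 0.28 in oocytes over 0.984 and 0.971 in 2-cell embryos to 2.25 in NT morulae and 2.77 and 2.82 in blastocysts.

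E4, which carries an arrow in its later hit to the chromosome 29 cluster, went the other way. It stood at 2.00, 2.54 and 4.03 per 1000 E1 reads in oocytes, 1.84 and 2.03 in 2-cell embryos, 1.39 and 1.53 in 8-cell embryos, 0.524 in NT morulae, and 0.186 and 0.0754 in IVF and NT blastocysts. On the deposited scale it was the called member with the largest fall in both blastocysts (limma, -7.31 ± 0.90 and -7.97 ± 0.84 log2 units). Its reads were 0, 3 and 8 in IVF and 0, 11, 0 and 0 in NT blastocysts. The lowest value therefore limits the size of both falls, and the NT blastocyst mean rests on 1 library. E2 and E4 thus name the same pair of clusters and moved apart relative to E1. E11 was highest at the 2-cell stage, with 0.609 in oocytes, 1.54 and 1.26 in 2-cell embryos and 0.137 in IVF blastocysts.

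E5, exact also to clusters on chromosomes 2 and X (chr2:93033110-93043754 and chrX:52222366-52229039), separated the 2 kinds of 2-cell embryo. It stood at 2.71 ± 0.48 per 1000 E1 reads in oocytes, 6.05 ± 0.27 in IVF 2-cell embryos (5.75 to 6.30, n = 4) and 4.32 ± 0.66 in NT 2-cell embryos (3.59 to 5.14, n = 4). The 2-cell groups did not overlap. This row was singled out after its values were seen and the difference was not tested. By the 8-cell stage the means were 6.55 and 6.04, and in blastocysts 2.73 and 2.69, near the oocyte value.

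Arrow rows together made up 3.55%, 3.33% and 3.32% of cluster reads in oocytes (mean 3.40% ± 0.13, n = 3). The share was 3.65% ± 0.41 in IVF and 4.01% ± 0.35 in NT 2-cell embryos (n = 4 each), 3.35% ± 0.095 (n = 3) and 3.69% ± 0.25 (n = 4) in 8-cell embryos, and 2.57% ± 0.45 in NT morulae (n = 3). IVF blastocysts had 2.36%, 2.12% and 1.83%, and NT blastocysts 1.86%, 1.99%, 2.04% and 1.87%. All 7 blastocyst libraries lay below all 3 oocyte libraries. They were also shallower, with 12937 to 27315 cluster reads in IVF and 7468 to 39120 in NT blastocysts, against 62120 to 83772 in oocytes. Rows with fewer than 2 reads count as 0, and the part of depth in the arrow share was not tested. The differences from oocytes were -1.30 points for IVF (exact permutation p = 0.1, the smallest possible, adjusted p = 0.229 over 6 tests) and -1.46 points for NT blastocysts (exact permutation p = 0.0286, the smallest possible, adjusted p = 0.171). NT minus IVF was 0.362 points at the 2-cell stage (exact permutation p = 0.257), 0.338 at the 8-cell stage (p = 0.114), -0.359 for the morula (p = 0.5) and -0.159 for the blastocyst (p = 0.343). None of the 6 passed after adjustment.

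The most abundant arrow rows each named 1 change against the same cluster. M1 (C20A) stood at 6.96, 4.48 and 4.24 per 1000 E1 reads in oocytes, at 5.57, 2.63, 1.88 and 3.45 in IVF 2-cell embryos and at 4.67, 3.24, 8.12 and 3.1 in NT 2-cell embryos. M2 (G17A) stood at 3.02, 2.94 and 3.27, at 3.60, 1.40, 1.5 and 2.29, and at 2.41, 1.23, 4.77 and 1.56 in the same libraries. Both spread several-fold within a group. Both had their highest value in IVF morula replicate 2 (9.65 and 6.10) and their lowest in IVF blastocyst replicate 4 (0.08 and 0).

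M5 (A14G) was lower at each later stage by group mean. It stood at 1.28, 1.61 and 1.53 per 1000 E1 reads there (mean 1.47), at 1.03 and 1.37 in IVF and NT 2-cell embryos, 0.55 and 0.82 in 8-cell embryos, 0.21 in NT morulae, and 0.11 and 0.055 in blastocysts. IVF morula replicates 2 and 4 had 0.42 and 0.33. M6 (T18C) stood at 1.90, 1.31 and 1.11 in oocytes. M8 (G26A) had the opposite start, with 1.02, 1.29 and 1.36 in oocytes but 2.85, 3.68, 2.36 and 3.36 in IVF and 3.12, 3.84, 3.19 and 3.42 in NT 2-cell embryos. The 2-cell libraries all lay above the oocytes. M8 then stood at 1.71, 2.63 and 2.80 in IVF and 2.58, 2.45, 2.90 and 2.68 in NT 8-cell embryos, and at 0.67 and 0.74 on average in blastocysts.

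**Figure D2:**
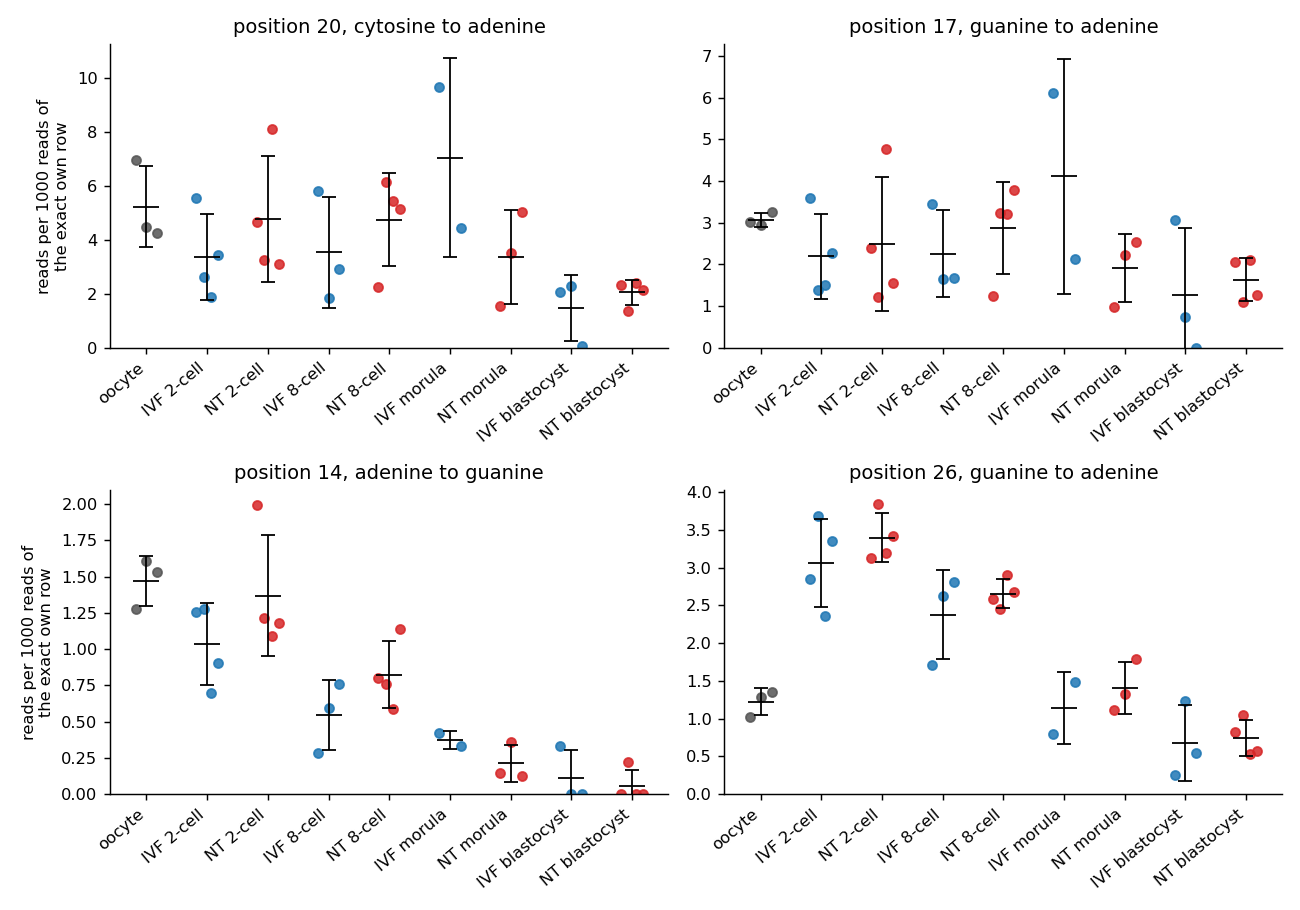
Reads of 4 single arrow rows (changes at listed positions 20, 17, 14 and 26) per 1000 reads of E1, by group. Points are libraries and bars are the mean ± SD, with IVF morula shown for replicates 2 and 4. The row at position 14 is lower at each stage, from a mean of 1.47 in oocytes to 0.11 and 0.055 in blastocysts, and the row at position 26 is highest at the 2-cell stage.

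M8 belongs to a set of changes late in the listed positions that nearly all put adenine in the read. At positions 24 to 30, 94.2% of 24322 reads of arrow rows had adenine after the arrow (25 of 47 rows). At positions 2 to 22 it was 34.0% of 53827 reads (39 of 229 rows), and at position 23 44.7%. The cluster's base in the late rows was G in 50.8%, C in 38.5% and T in 10.7% of reads. The range of 24 to 30 was chosen after the positions' values were seen. The largest rows in it, after M8, were M9 (C25A, 3034 reads over all libraries), M14 (G25A, 2714), M18 (G27A, 2134), M20 (C26A, 1764), M11 (C27A, 1725) and M15 (C24A, 1415). None of these names a cluster elsewhere. Whether such bases were added to the molecule, differ in the genome of these animals or arose in sequencing was not tested.

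**Figure D3:**
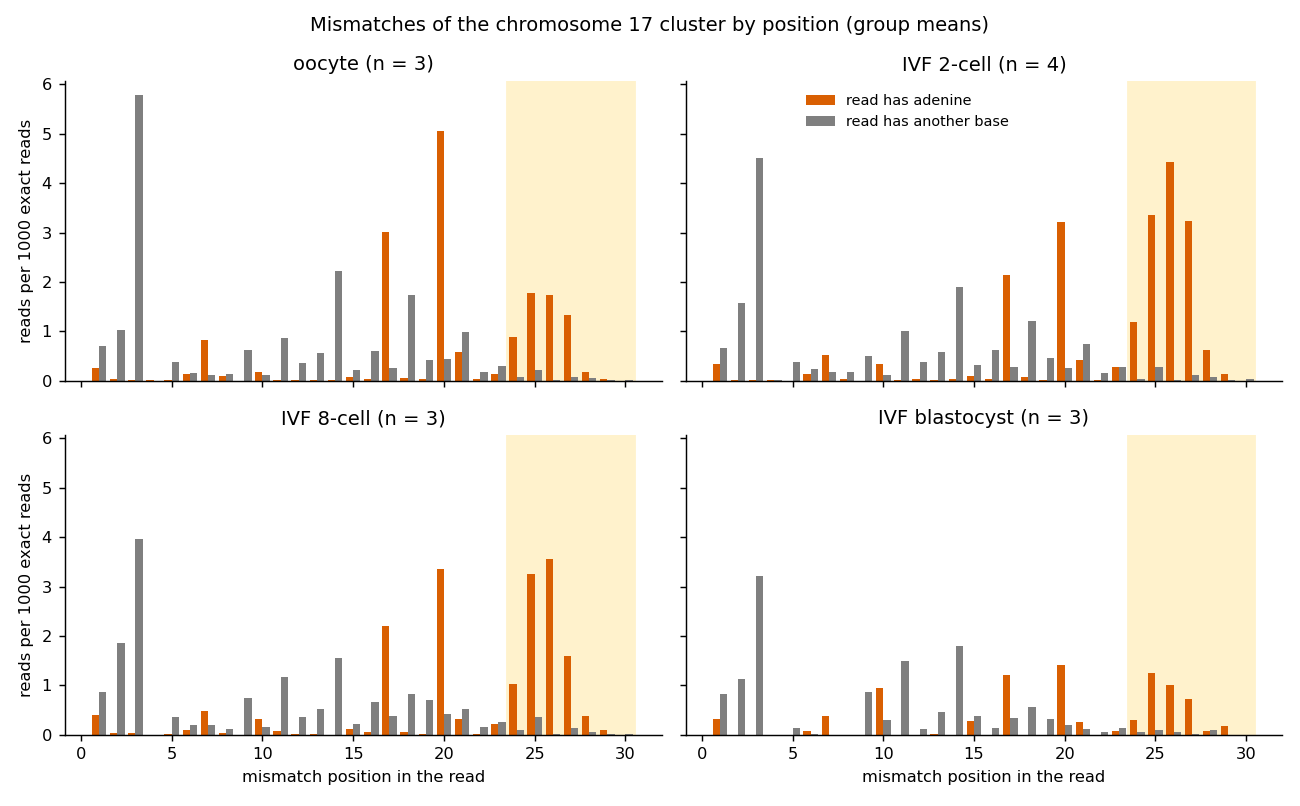
Changes to adenine and to other bases by listed position, per 1000 exact cluster reads, as group means in oocytes, IVF 2-cell embryos, IVF 8-cell embryos and IVF blastocysts. Positions 24 to 30 are shaded. Oocytes are highest at positions 3 (other bases) and 20 (adenine), while 2-cell embryos have a further peak of adenine around position 26, at 4.44 against 1.73 in oocytes.

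The late-position adenine rate, the reads of these rows per 1000 exact cluster reads, was higher in all 2-cell libraries than in all oocyte libraries and lowest by group mean in the blastocysts, IVF morula replicates 1 and 3 aside. Oocytes had 6.03, 5.85 and 5.93 (mean 5.94 ± 0.086, n = 3). IVF 2-cell embryos had 13.3, 16.3, 10.5 and 11.8 (13 ± 2.47, n = 4) and NT 2-cell embryos 11.9, 17.2, 12.3 and 13.2 (13.6 ± 2.41, n = 4). The IVF and NT embryos overlapped. At the 8-cell stage the rate was 8.15, 9.70 and 11.9 in IVF embryos (9.92 ± 1.89, n = 3) and 11.1, 10.7, 10.8 and 10.0 in NT embryos (10.7 ± 0.464, n = 4), still above all oocytes. IVF morula replicates 2 and 4 had 4.77 and 6.03, and NT morulae 3.85, 5.75 and 5.96 (5.19 ± 1.16, n = 3), around the oocyte level. IVF blastocysts had 2.77, 3.45 and 4.36 (3.53 ± 0.80, n = 3) and NT blastocysts 4.84, 4.09, 3.19 and 3.68 (3.95 ± 0.70, n = 4), all below the oocytes. IVF morula replicate 3 had no such read among 238 exact reads.

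**Figure D4:**
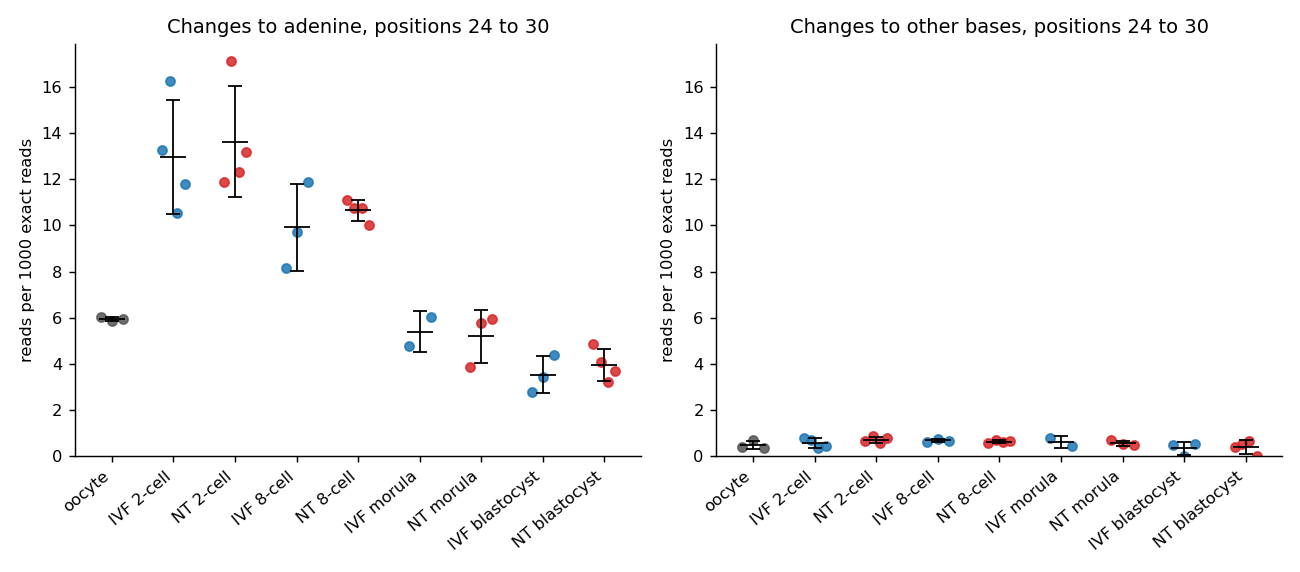
Reads with a change to adenine (left) and to another base (right) at positions 24 to 30, per 1000 exact cluster reads, by group. Points are libraries and bars are the mean ± SD, with IVF morula shown for replicates 2 and 4. Oocytes sit at 5.85 to 6.03, all 2-cell libraries at 10.5 or above and all blastocyst libraries at 4.84 or below on the left.

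Differences were tested over libraries in a family of 9 two-sided exact permutation tests, on a measure chosen after its values were seen. Only rows listed in NT 2-cell replicate 4 could enter that measure. IVF and NT 2-cell embryos exceeded oocytes by 7.03 and 7.70 per 1000, and the NT 8-cell, IVF blastocyst and NT blastocyst groups differed from the 2-cell embryos of their kind by -2.98, -9.45 and -9.68. Each of these 5 had an exact permutation p of 0.0286, the smallest its group sizes allow, and an adjusted p of 0.0514, which misses 0.05. IVF 8-cell minus IVF 2-cell embryos was -3.05 (exact permutation p = 0.143, adjusted p = 0.214). NT minus IVF was 0.66 at the 2-cell stage (exact permutation p = 0.657), 0.74 at the 8-cell stage (p = 0.543) and 0.43 at the blastocyst (p = 0.486), each within the spread of the libraries.

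Changes to other bases at positions 24 to 30 were far fewer. By group mean they too were higher in 2-cell embryos than in oocytes and lowest in blastocysts. Unlike the adenine rate, their IVF mean was highest at the 8-cell stage, and NT morulae (0.56) lay above the oocyte mean. They stood at 0.47 per 1000 exact reads in oocytes, 0.56 and 0.71 in IVF and NT 2-cell embryos, 0.68 and 0.63 in 8-cell embryos and 0.33 and 0.40 in blastocysts. The ranges of oocytes (0.344 to 0.679) and 2-cell embryos (0.331 to 0.852) overlapped. Changes to adenine at positions 2 to 22 stood at 10.2 ± 1.6 in oocytes and at 7.20 and 8.82 in 2-cell embryos, below the oocyte mean. Here too the libraries overlapped, with 9.13 to 12.1 in oocytes, 4.86 to 10.3 in IVF and 5.84 to 14.4 in NT 2-cell embryos. By position, the adenine rate was 1.78 ± 0.043 in oocytes against 3.36 and 3.75 in IVF and NT 2-cell embryos at position 25, 1.73 ± 0.29 against 4.44 and 4.76 at position 26, and 1.33 ± 0.24 against 3.24 and 3.34 at position 27. At position 24 the means were 0.88, 1.18 and 1.13. For libraries of like depth, the 6 with 75752 to 80028 E1 reads had rates of 5.85 and 5.93 (oocyte replicates 3 and 4), 12.3 (NT 2-cell replicate 3), 10.7 (NT 8-cell replicate 2), 6.03 (IVF morula replicate 4) and 5.96 (NT morula replicate 4). No blastocyst library had such depth, and the part of depth in the rate was not tested.

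The other large clusters also had their highest group means in 2-cell embryos. No test compared the courses of the clusters. The chromosome 6 cluster had 7.80 ± 0.14 late adenine reads per 1000 exact reads in oocytes, 12.9 and 13.2 in IVF and NT 2-cell embryos, 10.4 and 10.7 at the 8-cell stage, and 4.46 and 4.65 in blastocysts. The chromosome 23 cluster (chr23:13905000-14137856, 487 rows) had 6.03 ± 0.38, 10.9 and 11.9, 8.27 and 9.32, and 3.39 and 4.13. Its NT blastocysts ran from 1.94 to 6.93, past the highest oocyte library (6.40). On chromosome 17 no blastocyst library reached the oocytes. The same held on chromosome 6 (at most 6.89 against at least 7.67) and in the remaining piRNA rows (at most 7.15 against at least 16.8). All remaining piRNA rows together had 18.2 ± 1.70 in oocytes, 23.4 and 25.1 in 2-cell embryos and 5.37 and 5.22 in blastocysts, with NT 2-cell embryos (18.9 to 32.5) overlapping oocytes (16.8 to 20.1). The ratio of the chromosome 17 to the chromosome 6 rate was 0.761 ± 0.0033 in oocytes (n = 3), 1.01 ± 0.11 in IVF and 1.04 ± 0.054 in NT 2-cell embryos (n = 4 each), with no overlap. The differences were 0.253 and 0.281, and ran from 0.201 to 0.294 when 1 library was left out. This ratio was chosen after its values were seen and is given as a description. The ratio was 0.957 and 1.00 at the 8-cell stage and 0.82 and 0.95 in blastocysts.

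**Figure D5:**
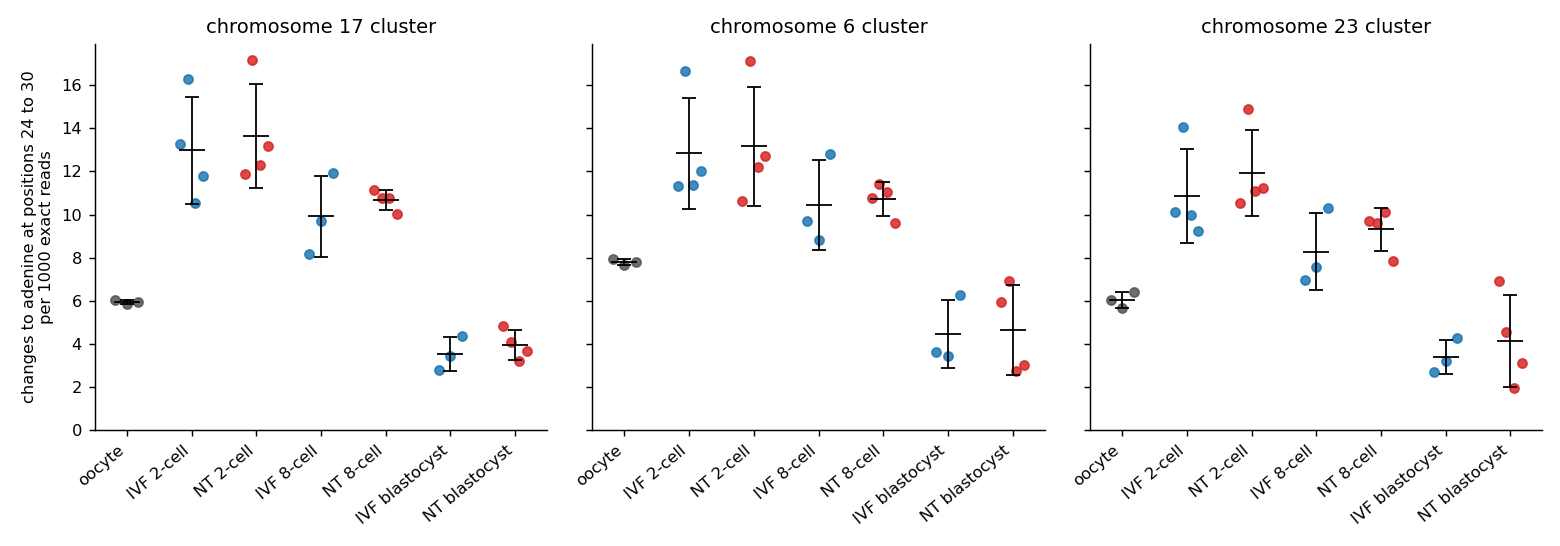
Late-position adenine rate (positions 24 to 30) per 1000 exact reads in the chromosome 17, 6 and 23 clusters, in oocytes, 2-cell embryos, 8-cell embryos and blastocysts (morulae are not plotted). Points are libraries and bars are the mean ± SD. Among the stages plotted, the group means of all 3 clusters are highest in 2-cell embryos and lowest in blastocysts, and chromosome 17 lies below chromosome 6 in oocytes (5.94 against 7.80) but at about its level in 2-cell embryos.

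Few single rows were called between oocyte and 2-cell embryo, at shares near those of all rows. By limma, 6 members were higher and 3 lower in IVF 2-cell embryos than in oocytes. That was 1.98% of the 455 tested (background 3.03%: 0.789% higher, 2.24% lower). In NT 2-cell embryos 12 were higher and 3 lower, or 3.30% (background 2.43%: 1.85% higher, 0.581% lower). Centred on the median of the rows the splits were 20 and 0, and 13 and 0, and centred on the other piRNAs 15 and 2, and 13 and 5. The largest rise in both was M155 (C27A, with hits to the chromosome X and chromosome 2 clusters), by 3.80 ± 0.71 log2 units in IVF (adjusted p = 0.000477) and 3.21 ± 0.71 in NT 2-cell embryos (adjusted p = 0.0052). Its reads were 4, 0 and 0 in oocytes, 22, 20, 23 and 18 in IVF and 6, 10, 15 and 63 in NT 2-cell embryos, so every 2-cell library exceeded the oocytes.

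Among the other called rows, M112 (C28A) was higher in both kinds of 2-cell embryo, by 2.48 and 2.92, and M267 (C23A) and M278 (C26A) were higher in 1 kind each. M63 (T21A) and M107 (T20G) were lower in both, M63 by 2.28 ± 0.67 (change -2.28, limma adjusted p = 0.0389) in IVF and by 2.26 (change -2.26) in NT. M121 (C24T) was lower in IVF and M70 (C16T) in NT 2-cell embryos (-2.58 ± 0.68, adjusted p = 0.0231). M107 in both comparisons, and E101, M260 and M278 in NT, passed the filter on low values only through the group where they were high, so their calls carry no weight. Both comparisons share the oocyte libraries, and only rows listed in NT 2-cell replicate 4 could be tested. A count model (voom on the recovered reads) called none of these rows, and a fit on the compared groups alone called 0 and 1.

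Between NT and IVF, 11 members were higher in NT and none lower at the 2-cell stage (background 2.28%, 2.16% higher). These 11 had 14 to 121 reads each over all libraries. The largest difference was that of E101 (2.67 log2 units), which had 3, 3, 3 and 8 reads in NT and none in IVF 2-cell embryos. Of the 11, 3 (E101, M260 and M278) passed the filter on low values only through the NT 2-cell libraries where they were high, so their calls carry no weight. The count was 0 with median centring, with voom or with only the compared groups, and 6 (3 higher, 3 lower) when centred on the other piRNAs. At the 8-cell, morula and blastocyst stages and in the blastocyst-derived cells limma called 0 members (background 0.00831%, 0%, 0.00831% and 0%). At an unadjusted p under 0.05 the counts there were 44, 40, 1 and 0, and voom called 0 in each. Without IVF morula replicate 2 or 4 the morula count was 22 or 24, and without replicates 1 and 3 together it was 0. The median NT minus IVF change over the tested members was 0.34, 0.38 and 0.22 log2 units at the 2-cell, 8-cell and morula stages, against 0.34, 0.33 and 0.31 over all rows.

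Over the 12 group means, the clusters with the pattern most like that of chromosome 17 were the chromosome 23 cluster named above (Pearson r = 0.999), one on chromosome 14 (chr14:4892124-5053723, r = 0.998) and one on chromosome 16 (chr16:44978215-44986960, 48 rows, r = 0.998). Over the 74 other clusters with at least 20 rows, of 616 cluster names, the median r was 0.993 and the lowest 0.974. The groups share libraries and scaling across clusters, and the correlations are a description.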

How the data were processed

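The authors trimmed the small RNA reads of 42 libraries with Trim Galore, used builds UMD3.1 and bosTau8 and transformed counts by DESeq2, per the submitters' processing notes, where neither versions nor an aligner are listed. The authors deposited 1 table of size-factor normalised, variance-stabilised values on a log2 scale. Its inverse gave whole multiples of 1 step per library for 188126 of 188126 values above the lowest (tolerance 0.01 reads), and the smallest value was set to 2 reads. The absolute read scale rests on that choice. Shares and rates used these reads.

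The deposited log2 values were tested with limma 3.58.1 in R 4.3.3 (1 mean per group, 12 groups, 30 residual degrees of freedom, trended spread, Benjamini-Hochberg over all rows, 0.05). Rows that exceeded the lowest value by 1 log2 unit or more in 3 or more libraries were tested (12039 rows). The fit was tested on simulated data. Single measures were compared by two-sided exact permutation tests in Python 3.11.15 with numpy 2.4.6 and pandas 2.3.3. Figures used matplotlib 3.10.9.

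Members and lists were chosen with earlier results of these data known. Named rows were the 12 exact and 6 arrow rows highest in oocytes, and per comparison the called row with the largest change each way. Rows in the late-position adenine range, other called arrow rows, the chromosome 6 ratio were chosen after their values were seen. Alternatives were another filter, centring, voom on recovered reads, only the compared groups, single libraries left out and a replicate block.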

Additional observations from a re-analysis of the deposited data

Results flagged for a closer look

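Of 44 groups of 4 or more libraries examined over the measures above, 6 held 1 library far from the others by Dixon's test. Chance flags about 1 in 20 groups only for untied, normally spread values, which was not checked here. Where all other libraries sat at 0 or at the lowest value, any value above them is flagged, however small. That holds for both flags of IVF BDC replicate 4, which rest on the same 3 reads, and for M5 in NT blastocyst replicate 2. Replicate 4 of the cells from IVF blastocysts had 0.129% of piRNA reads in the cluster, against 0% in the other 3, and an E1 value of 2.00 on the deposited log2 scale, against 1.37. NT 8-cell replicate 1 had 3.31% of cluster reads in arrow rows, against 3.81% to 3.82%. M5 stood at 1.99 per 1000 E1 reads in NT 2-cell replicate 1, against 1.09 to 1.21, and at 0.219 in NT blastocyst replicate 2, against 0. M6 stood at 0 in NT blastocyst replicate 4, against 0.247 to 0.292.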

How the results depend on the processing

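Apart from settings that leave out 1 library, 121 values counted as unchanged, 17 moved and 8 reversed. A count of calls was unchanged if equal to the main count or within a fixed factor of it. A permutation measure was unchanged if it kept its direction and its side of the adjusted threshold. The causes were not tested unless given. Calls of NT against IVF 2-cell embryos were 11, and 2 with a stricter filter, 0 median-centred, 6 centred on other piRNAs, 0 with voom and 0 with only the compared groups. IVF 2-cell against oocyte gave 9, and 20, 17, 0 and 0 with the last 4 of these settings. NT 2-cell against oocyte gave 15, and 5 with the stricter filter, 0 with voom and 1 with only the compared groups. IVF blastocyst against oocyte gave 173, and 42 median-centred, 231 centred on other piRNAs (direction reversed) and 45 with voom. NT blastocyst gave 197, and 111, 246 (reversed) and 67. Fibroblast gave 197, and 82 and 256 (reversed). The reversed counts can include rows at the lowest value in both groups, which this centring moves up. Where the lowest value was not removed, which adds the same amount to every row, the cluster share difference of NT minus IVF blastocysts was -1.14, and arrow share differences were 4.10 (IVF blastocyst minus oocyte), 7.92 (NT blastocyst minus oocyte) and 3.82 (NT minus IVF blastocyst), all reversed. With the 6 late adenine rows with most reads, the NT minus IVF blastocyst rate was -0.285 (reversed).

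Leaving out each library in turn gave these ranges. Calls ran from 11 to 35 (NT against IVF 2-cell), 0 to 0 (8-cell), 0 to 24 (morula), 0 to 0 (blastocyst), 0 to 0 (BDC), 8 to 18 (IVF 2-cell against oocyte), 9 to 33 (NT 2-cell), 141 to 165 (IVF blastocyst), 168 to 185 (NT blastocyst) and 174 to 188 (fibroblast). NT against IVF 2-cell gave 22, 25 and 35 without NT 2-cell replicate 1, 2 or 3. IVF 2-cell against oocyte gave 18 without oocyte replicate 4 and 16 without IVF 2-cell replicate 3 or 4. NT 2-cell against oocyte gave 9 without oocyte replicate 1 or 3, and 27, 25 and 33 without NT 2-cell replicate 1, 2 or 3. Cluster share differences ran from -1.71 to -0.90 (IVF blastocyst minus oocyte), -1.17 to -0.36 (NT blastocyst), -0.177 to 0.264 (NT minus IVF 2-cell), 0.271 to 0.410 (8-cell), 3.82 to 9.76 (morula) and 0.315 to 0.698 (blastocyst). Arrow share differences ran from -1.43 to -1.16, -1.50 to -1.38, 0.185 to 0.492, 0.283 to 0.464, -0.795 to 0.0705 and -0.294 to -0.032 in the same order. Late adenine rate differences ran from 5.93 to 7.84 (IVF 2-cell minus oocyte), 6.53 to 8.28 (NT 2-cell), -4.05 to -1.95 (IVF 8-cell minus 2-cell), -3.56 to -1.80 (NT), -10.3 to -8.34 (IVF blastocyst minus 2-cell), -10.3 to -8.51 (NT), -0.509 to 1.77 (NT minus IVF 2-cell), -0.143 to 1.74 (8-cell) and 0.0489 to 0.845 (blastocyst). The ratios to chromosome 6 differed by 0.201 to 0.282 (IVF) and 0.255 to 0.294 (NT).

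With the replicate number as a block, calls were 12, 0, 0, 0, 0, 10, 18, 168, 193 and 197 in the order of the first list above. In no comparison did every same-numbered pair deviate together (correlation over 0.1), but some NT and IVF pairs did. These were 2 of 4 at the 2-cell stage, 1 of 3 at the 8-cell stage, 2 of 3 for the morula and 2 of 3 for the BDC (highest 0.466). Whether equal numbers mark a shared batch was not tested. Without IVF morula replicates 1 and 3 together, added after seeing the data, calls were 10, 0, 0, 0, 0, 11, 15, 175, 194 and 196. The fit on only the BDC groups left no member to test. Planned measures of read length and first base were not run, since no sequences were used here. Depth limits the 307 members with under 100 reads.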
